A study of Homo sapiens with 10 samples.

Results

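The 10 genes described here encode proteins that transcribe mitochondrial DNA or decide how long the resulting RNAs last: POLRMT, TFAM, MTPAP, LRPPRC, SLIRP, FASTK, FASTKD1, FASTKD2, TBRG4 and FASTKD5. They were taken by gene symbol from a table of 16734 genes, and all 10 were found. The cells were MIA PaCa-2, an established human line from a pancreatic ductal adenocarcinoma. One group had been treated with 10 µM hydroxyprogesterone caproate (HPC), a synthetic progestin ester, for 24 h (5 libraries). The other had received the vehicle, DMSO, in the same volume for the same 24 h (5 libraries). No other agent or genetic change is named for either group, and replicates are labelled biological with no culture or day named. The p-values therefore speak only for the spread among the 10 libraries.

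Human mitochondrial DNA is copied into long RNAs from both strands by a single-subunit polymerase, POLRMT, with the DNA-packing protein TFAM and the factor TFB2M at the promoters. The long RNAs are cut into separate messages, given short poly(A) tails by MTPAP, and bound by LRPPRC and SLIRP, a complex that protects the messages of the heavy strand and promotes their tailing. Proteins of the FASTK family each act on particular mitochondrial RNAs, in their cutting, protection or translation. All of these proteins are made from nuclear genes and imported.

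Values are FPKM as deposited, fragments scaled to gene length and library size. Reads behind each value were recovered from the steps between FPKM values, and a library held 65851176 to 74477071 reads with HPC and 71602736 to 82218527 with DMSO. The 10 genes had from 1655 reads (FASTKD1, HPC replicate 2) to 55595 reads (LRPPRC, DMSO replicate 3) in a library. FPKM gives shares of a library, so fewer transcripts per cell and a changed total of RNA per cell cannot be told apart. Of the markers checked, the epithelial keratins KRT8 and KRT18 and the mesenchymal VIM were abundant, and EPCAM and CDH1 were at or near 0. The immune marker PTPRC and the endothelial marker PECAM1 were at most 0.00291 and 0.00844 FPKM. CD74, also listed as immune, averaged 0.0787 FPKM with HPC and 0.220 FPKM with DMSO. VWF, also listed as endothelial, averaged 0.0141 FPKM with HPC and 0.0334 FPKM with DMSO. VIM averaged 333 FPKM with HPC and 695 FPKM with DMSO. ZEB1, also listed as mesenchymal, went the other way, with 1.81 FPKM with HPC and 1.29 FPKM with DMSO. The keratin KRT19 averaged 10.1 FPKM with HPC and 24.0 FPKM with DMSO. KRT18 averaged 150 FPKM with HPC and 114 FPKM with DMSO, and KRT8 57.7 FPKM with HPC and 51.8 FPKM with DMSO. Summed stromal markers were 0.714 to 0.9746 FPKM with HPC and 24.5 to 26.7 FPKM with DMSO, nearly all of it COL1A2, while DCN was at or near 0, and the part of these marker shifts in the results below was not tested.

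By the deposited values, 7 of the 10 genes changed with HPC, in both directions. The mRNA-binding gene LRPPRC fell by 0.68 and FASTKD1 by 0.81 on the log2 scale, and FASTK and FASTKD2 fell by less. SLIRP, whose protein works in one complex with that of LRPPRC, rose by 0.29, FASTKD5 by 0.24 and POLRMT by 0.13, which turned to -0.03 under 1 rescaling described below. TFAM, MTPAP and TBRG4 did not pass the test, a limma fit over the 9150 genes that reached 1 FPKM in 5 or more libraries (Benjamini-Hochberg adjusted p under 0.05). All 10 genes were among those tested. In all, 7 of the 10 were called, against 87.7% of all tested genes. Of these, 3 were higher, against 42.9% of all tested genes, and 4 were lower, against 44.8%. A change of at least 1.5-fold was called for 2 of the 10, LRPPRC and FASTKD1, against 37.2% of all tested genes. The 5 HPC and 5 DMSO values did not overlap for 5 of the 10, against 79.6%. The median log2 fold change was 0.01 over the 10 genes and -0.01 over all tested genes, and the median size of change, without sign, was 0.22 and 0.43.

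Of the POLRMT, SLIRP and FASTKD5 rises, none was called when libraries were rescaled to the same FPKM sum over genes not encoded in mitochondrial DNA (log2 fold changes -0.03, 0.12 and 0.07, adjusted p = 0.462, 0.079 and 0.0905), and 7 of the 10 were then lower. This rescaling moved the median of all tested genes by -0.17, and lower genes made up 63.4% of the called ones with it and 51.1% without. The 13 mitochondrially encoded genes held 14.8% ± 0.717 of FPKM with HPC and 22.6% ± 0.704 with DMSO, but only 1.68% ± 0.0908 of recovered reads with HPC and 2.34% ± 0.102 with DMSO (SD, n = 5). Rescaled to the same number of reads outside those 13 genes, a choice made after seeing the data, the table again gave 3 higher and 4 lower among the 10, and the median of all tested genes moved by -0.01.

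**Figure D1:**
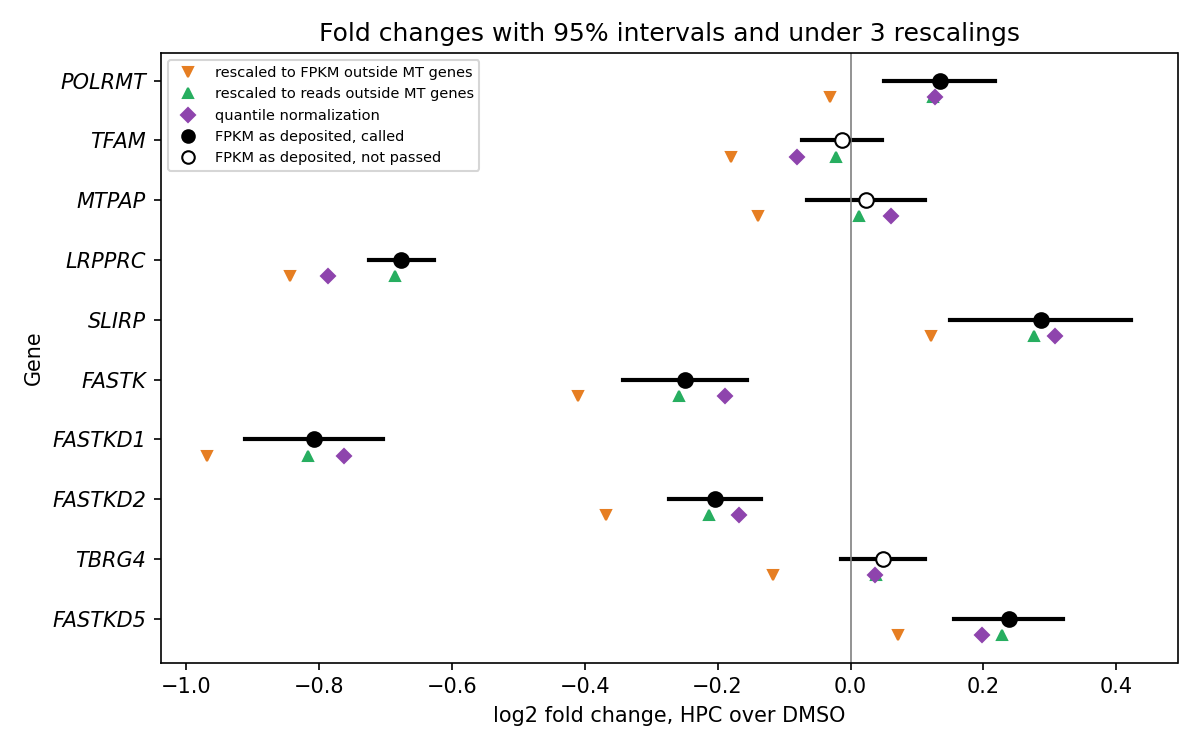
Log2 fold change of HPC over DMSO for the 10 genes (horizontal axis), ordered by role from top to bottom; black points and lines give the limma estimate on FPKM as deposited with its 95% interval (n = 5 each; filled: called, open: not passed), and coloured marks the estimate under 3 rescalings. LRPPRC and FASTKD1 lie farthest to the left under all 4, whereas POLRMT, TBRG4 and MTPAP lie on opposite sides of 0 as deposited and after rescaling to the FPKM sum outside mitochondrially encoded (MT) genes.

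The RefSeq promoter table (GRCh38.p14, 250 bases before to 50 after a start site) held 10 promoters of 9 of the genes, with 2 starts for SLIRP and no entry for FASTKD5. They were searched on both strands for short motifs of factors known to act on nuclear genes for mitochondrial proteins. The NRF1 core GCGCANGCG was found in the promoters of POLRMT, TFAM and MTPAP, and in 7.52% of all 35116 promoters. The ETS motif CCGGAAG, to which GABP binds, was found for POLRMT, SLIRP and TBRG4, and in 10.3% of all promoters. The GC box GGGCGG was found for POLRMT, TFAM, TBRG4 and FASTK, and in 44.95% of all promoters. CACGTG, the E-box of MYC and USF proteins, and TGATGNAA, a C/EBP-ATF composite element, were found in none of the 10, against 7.26% and 3.62% of all promoters. None of these 5 motifs was found in the windows of LRPPRC, FASTKD1 and FASTKD2. The promoters of 2 genes that rose (POLRMT and SLIRP, its upstream start), 1 that did not pass (TFAM) and the 2 with the largest falls (LRPPRC and FASTKD1) are given 5′ to 3′ on the gene's strand, with every match in capitals, so that they can be read side by side. Neighbouring matches in POLRMT and in TFAM overlap, so a run of capitals can hold several.
POLRMT (chr19:633488-633787, minus strand): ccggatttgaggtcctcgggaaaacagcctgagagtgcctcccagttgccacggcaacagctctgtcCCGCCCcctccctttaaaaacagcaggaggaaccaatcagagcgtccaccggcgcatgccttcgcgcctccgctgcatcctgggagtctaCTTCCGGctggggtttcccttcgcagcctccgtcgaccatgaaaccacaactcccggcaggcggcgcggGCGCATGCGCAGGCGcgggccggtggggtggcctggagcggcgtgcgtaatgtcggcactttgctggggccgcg
TFAM (chr10:58385160-58385459, plus strand): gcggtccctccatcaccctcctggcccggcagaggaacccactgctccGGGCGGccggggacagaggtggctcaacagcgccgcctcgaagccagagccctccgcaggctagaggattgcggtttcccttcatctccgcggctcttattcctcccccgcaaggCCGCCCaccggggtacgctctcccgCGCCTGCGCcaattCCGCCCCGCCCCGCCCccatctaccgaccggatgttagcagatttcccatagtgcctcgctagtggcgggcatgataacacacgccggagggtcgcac
SLIRP (chr14:77707821-77708120, plus strand): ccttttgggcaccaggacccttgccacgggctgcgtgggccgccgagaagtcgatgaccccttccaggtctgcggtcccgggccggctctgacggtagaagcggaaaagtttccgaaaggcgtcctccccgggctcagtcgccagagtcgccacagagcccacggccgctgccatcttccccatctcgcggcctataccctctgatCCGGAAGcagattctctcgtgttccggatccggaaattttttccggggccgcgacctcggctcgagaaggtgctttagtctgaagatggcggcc
LRPPRC (chr2:43995940-43996239, minus strand): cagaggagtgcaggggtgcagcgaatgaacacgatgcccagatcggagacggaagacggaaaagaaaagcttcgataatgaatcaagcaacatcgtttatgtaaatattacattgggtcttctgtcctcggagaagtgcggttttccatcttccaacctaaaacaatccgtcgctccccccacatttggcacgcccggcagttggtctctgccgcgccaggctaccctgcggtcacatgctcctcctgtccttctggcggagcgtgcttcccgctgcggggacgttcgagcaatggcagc
FASTKD1 (chr2:169573816-169574115, minus strand): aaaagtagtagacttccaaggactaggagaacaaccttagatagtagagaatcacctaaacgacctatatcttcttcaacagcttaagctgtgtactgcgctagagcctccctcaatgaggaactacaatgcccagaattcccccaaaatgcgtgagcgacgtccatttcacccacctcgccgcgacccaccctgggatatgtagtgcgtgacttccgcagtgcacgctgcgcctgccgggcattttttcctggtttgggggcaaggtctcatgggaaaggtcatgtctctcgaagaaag
A match here is a string of letters, and binding was not measured. NRF1 itself fell by 0.24 on the log2 scale and was called under all settings that tested it except quantile normalization (-0.05, limma, adjusted p = 0.357). It lay near the filter, with 0.934 ± 0.0632 FPKM with HPC and 1.12 ± 0.0480 FPKM with DMSO (SD, n = 5). It reached 1 FPKM in 6 libraries, among them all 5 DMSO libraries, so its place among the tested genes rests mostly on these. The GABP subunit genes GABPA and GABPB1 rose, by 0.32 and 0.71. The remaining GABP subunit gene of the list, GABPB2, was below the filter, with 0.496 ± 0.0505 FPKM with HPC and 0.679 ± 0.0519 FPKM with DMSO (SD, n = 5).

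Transcription of mitochondrial DNA starts with POLRMT (GENCODE 29, GRCh38, chromosome 19, 617224 to 633604, minus strand). POLRMT had 5.96, 6.08, 6.36, 6.13 and 6.27 FPKM in the HPC libraries, against 5.96, 5.17, 5.87, 5.50 and 5.54 FPKM in the DMSO libraries. Most HPC values were above all DMSO values, and the groups overlapped because HPC replicate 1 and DMSO replicate 1 were nearly equal. The rise of 0.13 ± 0.039 SE on the log2 scale passed the test (limma, adjusted p = 0.00548), but turned to -0.03 when rescaled to the non-mitochondrial FPKM sum. TFAM (chromosome 10, 58385022 to 58399221, plus strand), which packs mitochondrial DNA and bends it at promoters, had 17.9, 19.6, 19.2, 19.4 and 18.9 FPKM with HPC and 19.1, 19.0, 18.7, 19.3 and 19.7 FPKM with DMSO. The TFAM groups lay within the same range, apart from the lower HPC replicate 1. The estimate was -0.01 with a 95% interval of -0.07 to 0.05 (limma, adjusted p = 0.674), it turned to 0.00471 with median ratio scaling, and it was -0.08 after quantile normalization and -0.18 after rescaling to the non-mitochondrial FPKM sum, both called (adjusted p = 0.0163 and 6.28e-05).

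TFB2M and TEFM, which act with POLRMT in starting and extending RNAs, had estimates nearer 0 than POLRMT by the deposited values. TFB2M, which melts the promoter DNA, averaged 27.3 ± 0.959 FPKM with HPC and 25.8 ± 0.968 FPKM with DMSO (SD, n = 5; log2 fold change 0.08, limma, adjusted p = 0.031). Its call was lost with the sign kept in 10 other settings, and its estimate turned to -0.09 with the non-mitochondrial FPKM sum and to -0.00265 after quantile normalization. The elongation factor gene TEFM averaged 2.39 ± 0.160 FPKM with HPC and 2.44 ± 0.130 FPKM with DMSO (log2 fold change -0.03, limma, adjusted p = 0.632). The TEFM estimate was 0.02 after quantile normalization. It was -0.19 with the non-mitochondrial FPKM sum, called lower (limma, adjusted p = 0.00349). With that sum both TFB2M and TEFM lay further from 0 than POLRMT (-0.03). Of 9 other genes of mitochondrial transcription, 8 were tested. HPC raised 2 of them and lowered 5, so 87.5% were called, close to the 87.7% of all tested genes, and the list median was -0.16 on the log2 scale, against -0.01 for all tested genes. MTERF2, of the termination factor family, averaged 0.927 ± 0.0937 FPKM with HPC and 1.68 ± 0.0751 FPKM with DMSO and fell by 0.80 on the log2 scale. It reached 1 FPKM in 6 libraries, among them all 5 DMSO libraries, so its place among the tested genes rests mostly on these. TFB1M, a methyltransferase of the small ribosomal RNA, fell by 0.59, and MTERF3, another member of the termination factor family, rose by 0.47.

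MTPAP (chromosome 10, 30309801 to 30374448, minus strand) encodes the polymerase that adds poly(A) tails to mitochondrial messages. It had 2.95, 3.21, 2.78, 3.03 and 3.04 FPKM with HPC and 2.91, 2.97, 2.83, 2.94 and 3.11 FPKM with DMSO. The DMSO values all lay inside the HPC range. The log2 fold change was 0.02 with a 95% interval of -0.07 to 0.11 (limma, adjusted p = 0.607), and turned to -0.01 with TPM rescaling and to -0.14 with the non-mitochondrial FPKM sum (adjusted p = 0.00703). GENCODE 29 places 1120 exon bases of MTPAP opposite an antisense gene and 1626 on the same strand as a pseudogene, GOLGA2P6, so its reads are uncertain where these overlap.

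LRPPRC (chromosome 2, 43886508 to 43996005, minus strand) had the highest FPKM of the 10 in every library. Its values were 24.8, 24.6, 24.0, 25.6 and 24.7 FPKM in HPC libraries, against 39.3, 39.9, 38.6, 39.8 and 40.3 FPKM in DMSO libraries. The groups were far apart, with little spread inside either. LRPPRC averaged 24.7 ± 0.557 FPKM with HPC and 39.6 ± 0.675 FPKM with DMSO (SD, n = 5; log2 fold change -0.68 ± 0.023 SE, limma, adjusted p = 6.64e-12), and the estimate stayed between -0.84 and -0.66 over all other settings. SLIRP (chromosome 14, 77708071 to 77761104, plus strand), the small RNA-binding partner that LRPPRC protein stabilises, had 4.78, 5.56, 5.27, 4.18 and 4.85 FPKM with HPC and 4.22, 4.04, 4.09, 3.83 and 3.87 FPKM with DMSO. All HPC values but that of replicate 4 were above every DMSO value. The SLIRP rise of 0.29 ± 0.063 SE passed the test (limma, adjusted p = 0.000812), and was called in all other settings that tested the gene except the non-mitochondrial FPKM sum. SLIRP was also the most variable of the 10 among HPC libraries, with a coefficient of variation of 10.6%, against a median of 3.55% over the 10 genes. It shares 275 exon bases with C14orf178 on the same strand and 118 with SNW1 on the opposite one.

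Because the LRPPRC and SLIRP proteins form one complex, the ratio of their RNAs was also taken, which does not depend on how libraries are scaled. LRPPRC FPKM divided by SLIRP FPKM was 5.18, 4.43, 4.56, 6.11 and 5.10 in the HPC libraries, against 9.31, 9.89, 9.44, 10.4 and 10.4 in the DMSO libraries. The highest HPC ratio was below the lowest DMSO ratio. The means were 5.08 ± 0.665 with HPC and 9.89 ± 0.517 with DMSO (SD, n = 5 each). The difference was -0.97 on the log2 scale (exact two-sided permutation test over all assignments of the 10 libraries, p = 0.00794, the smallest that it can give). LRPPRC alone already separated the groups without overlap, so this ratio is no evidence beside the changes of its 2 genes. Over GENCODE 29 exon lengths in place of the deposited ones, the ratio was 3.85 ± 0.505 with HPC and 7.50 ± 0.392 with DMSO. Its size in either group thus depends on the gene lengths used. It is a ratio of RNAs, and protein was not measured.

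**Figure D2:**
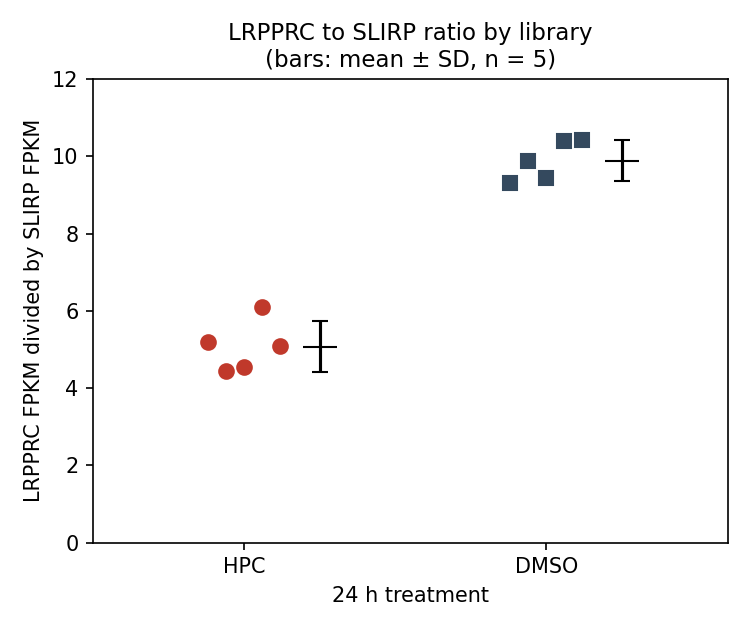
LRPPRC FPKM divided by SLIRP FPKM (vertical axis, from 0) in each of the 5 HPC and 5 DMSO libraries (horizontal axis), with mean and SD beside each group. The HPC libraries lie between 4.43 and 6.11 and the DMSO libraries between 9.31 and 10.4, with no overlap.

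Of the FASTK family, 5 genes are among the 10, and 3 of them fell, 1 rose and 1 did not pass, when 87.7% of all tested genes were called and 44.8% were lower. FASTKD1 (chromosome 2, 169529749 to 169573875, minus strand) had 1.94, 1.81, 1.91, 2.16 and 1.89 FPKM with HPC and 3.66, 3.32, 3.42, 3.33 and 3.61 FPKM with DMSO. The groups did not overlap. This was the largest fall of the 10, with means of 1.94 ± 0.130 FPKM with HPC and 3.47 ± 0.159 FPKM with DMSO (SD, n = 5; log2 fold change -0.81 ± 0.048 SE, limma, adjusted p = 2.09e-09; -0.97 to -0.60 over the other settings). Human cells that lack FASTKD1 are known to hold more MT-ND3 message, while cells that lack TBRG4 hold less. MT-ND3 itself had 228 to 298 FPKM with HPC and 856 to 1005 FPKM with DMSO.

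FASTK (chromosome 7, 151076593 to 151080866, minus strand), which in mitochondria maintains the MT-ND6 message, had 2.03, 2.06, 1.89, 1.80 and 1.92 FPKM with HPC and 2.23, 2.30, 2.43, 2.37 and 2.29 FPKM with DMSO. Every HPC value was below every DMSO value (log2 fold change -0.25 ± 0.043 SE, limma, adjusted p = 0.000101). The gene has a mitochondrial and a longer cytosolic and nuclear form, which values per gene do not separate. FASTKD2 (chromosome 2, 206765357 to 206792509, plus strand), which binds the large ribosomal RNA of mitochondria and the MT-ND6 message, had 3.42, 3.33, 3.29, 3.47 and 3.54 FPKM with HPC and 3.96, 4.00, 4.08, 3.84 and 3.83 FPKM with DMSO. Here too the groups did not overlap (-0.20 ± 0.032 SE, limma, adjusted p = 4.47e-05). FASTKD2 shares 191 exon bases with MDH1B on the opposite strand.

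TBRG4, also called FASTKD4 (chromosome 7, 45100100 to 45112047, minus strand), had 6.47, 6.32, 6.41, 6.13 and 6.25 FPKM with HPC and 6.23, 5.90, 6.28, 6.23 and 5.88 FPKM with DMSO. The groups overlapped (log2 fold change 0.05, 95% interval -0.02 to 0.11, limma, adjusted p = 0.135). Its estimate turned to -0.12 with the non-mitochondrial FPKM sum (adjusted p = 0.00194) and passed at 0.07 with median ratio scaling (adjusted p = 0.0497). FASTKD5 (chromosome 20, 3146519 to 3159897, minus strand), needed to cut messages at sites that no transfer RNA flanks, had 18.1, 17.1, 17.2, 16.4 and 17.3 FPKM with HPC and 15.4, 13.6, 14.02, 15.0 and 15.0 FPKM with DMSO. All HPC values were above all DMSO values (0.24 ± 0.038 SE, limma, adjusted p = 4.91e-05). On the same strand FASTKD5 shares 132 exon bases with UBOX5, and TBRG4 shares 132 with the small nucleolar RNA gene SNORA5B, so reads there are uncertain. FASTKD3, the family member outside the 10, had a log2 fold change of -0.65 (limma, adjusted p = 4.6e-09) and was named after its value was seen.

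**Figure D3:**
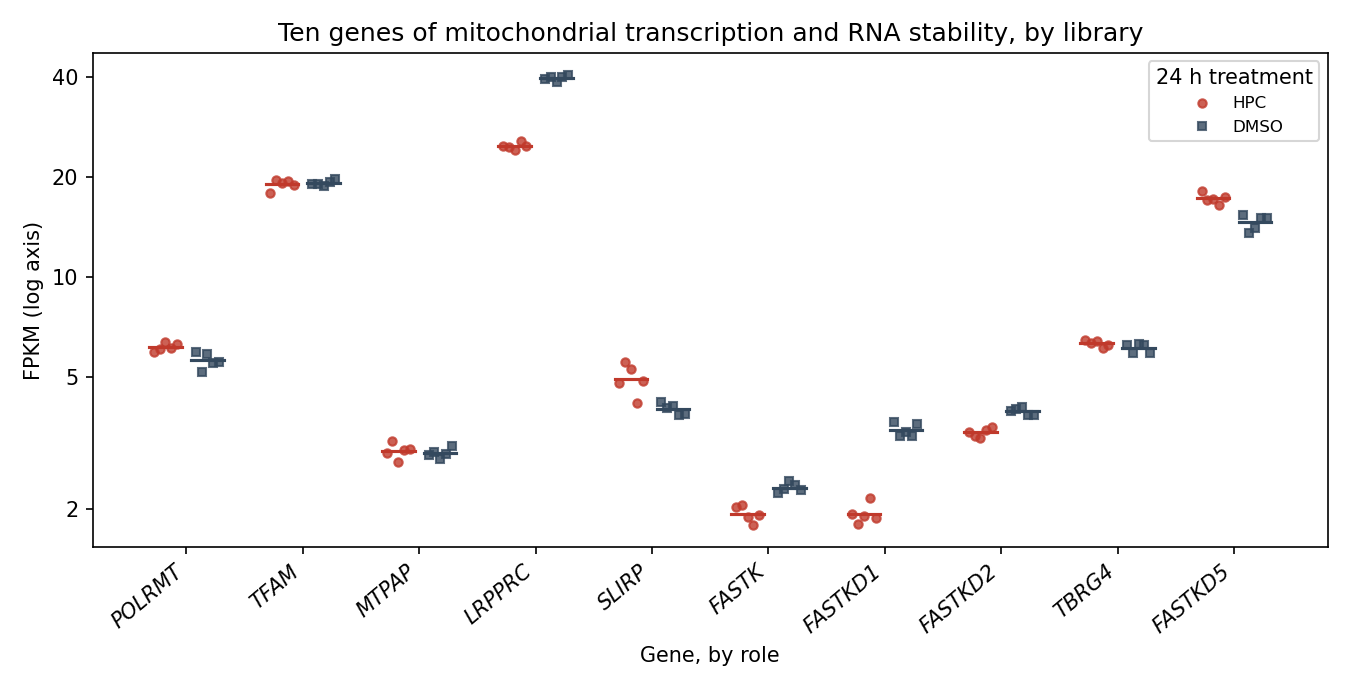
FPKM on a log axis (vertical) of the 10 genes (horizontal, ordered by role) in each of the 5 HPC libraries (left of each pair) and 5 DMSO libraries (right); points are libraries and short lines are group means. LRPPRC, FASTK, FASTKD1 and FASTKD2 are lower and FASTKD5 higher in HPC libraries without overlap, SLIRP and POLRMT overlap in part, and TFAM, MTPAP and TBRG4 lie at about the same level.

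The deposited FPKM cannot be compared between genes as levels per length. The gene length behind each FPKM, worked out from its reads, was 23644 bases for FASTK, whose locus spans 4274 bases and whose exons cover 3805. It was close to the lengths of the exons of all GENCODE 29 transcripts added together, 23663 bases for FASTK, and within 1% of that sum for 76.3% of 15183 genes. For FASTKD1 and FASTKD2 it was longer than the sum, 13355 against 12114 bases and 18672 against 14535 bases. Single-transcript genes are hardly affected, among them the mitochondrially encoded ones (957 bases for MT-ND1, whose exon has 956), while genes with many annotated transcripts get a low FPKM. The length of a gene is the same in all libraries, so the ratio of its FPKM between groups does not depend on it. The filter, the pseudocount and rescalings to a sum of FPKM do: the log2 fold change of FASTKD1 was -0.81 on FPKM and -0.84 on the recovered reads (limma's voom).

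Levels between the 10 genes are therefore given as FPKM worked out again from the recovered reads, over the length of GENCODE 29 exons with each base counted once. This length takes in the exons of all annotated transcripts and need not be that of the RNA in these cells. The exons on which reads were counted are not given either, so the order below depends on the length chosen. LRPPRC was highest, at 44.5 ± 1.00 with HPC and 71.1 ± 1.21 with DMSO (SD, n = 5). TFAM at 26.4 ± 0.926 with HPC and 26.6 ± 0.504 with DMSO, and TBRG4 at 22.1 ± 0.476 with HPC and 21.4 ± 0.681 with DMSO, came next in both groups, and these 3 did not overlap in range. With HPC there followed FASTKD5 (17.04), FASTK (12.1), SLIRP (11.7), POLRMT (11.4), FASTKD2 (10.5), FASTKD1 (5.83) and MTPAP (4.76), of which FASTK and SLIRP, and SLIRP and POLRMT, overlapped as neighbours. With DMSO the order was FASTK (14.5), FASTKD5 (14.4), FASTKD2 (12.1), FASTKD1 (10.4), POLRMT (10.4), SLIRP (9.49) and MTPAP (4.68). Neighbours overlapped there for FASTK and FASTKD5, for FASTKD1 and POLRMT, and for POLRMT and SLIRP.

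The RNAs that these proteins make and protect were mostly lower. LRPPRC and SLIRP are known to protect the 12 messages of the heavy strand, and MT-ND6, copied from the light strand, is not among their targets. Of the 12, 9 fell and MT-ND1 rose by 0.38, and their median was -0.41 on the log2 scale, where 44.8% of all tested genes were lower and 42.9% higher. The changes of MT-ND2 and MT-ND4 missed the threshold by the deposited values. MT-ND2 was called lower in 4 other settings. Among them were the non-mitochondrial FPKM sum (-0.23, limma, adjusted p = 0.000208) and quantile normalization (-0.20, limma, adjusted p = 0.00043). MT-ND6 fell by 0.55, within the range of the 12, with 336, 303, 329, 364 and 314 FPKM with HPC and 513, 519, 452, 456 and 467 FPKM with DMSO. Whether reads were counted by strand is not given, so RNA of the opposite strand across MT-ND6 cannot be told apart from its message. Under quantile normalization 7 of the 13 mitochondrially encoded genes were lower in place of 10, and their median was -0.20 in place of -0.47. The calls of MT-CO1 (-0.02, limma, adjusted p = 0.741), MT-ND5 (-0.07, limma, adjusted p = 0.284) and MT-CO2 (0.00) were lost there. Quantile normalization gives each value the mean for its rank. A gene with the same ranks in both groups is thus set to a change of 0, as MT-CO2 was. A call lost in this way does not show that the FPKM were unchanged. MT-ND4L, lower by the deposited values, was at 0.065 under quantile normalization. MT-ND4 was called higher under it (0.45, limma, adjusted p = 3.41e-12). The estimate for MT-ND4 changed sign under TPM rescaling (-0.02, not called) and the non-mitochondrial FPKM sum (-0.16, limma, adjusted p = 0.00892, called). Libraries were made from poly(A)-selected RNA, and tail lengths of mitochondrial messages were not measured. Genes that share bases, MT-ATP8 with MT-ATP6 (46) and MT-ND4L with MT-ND4 (7), are not independent.

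**Figure D4:**
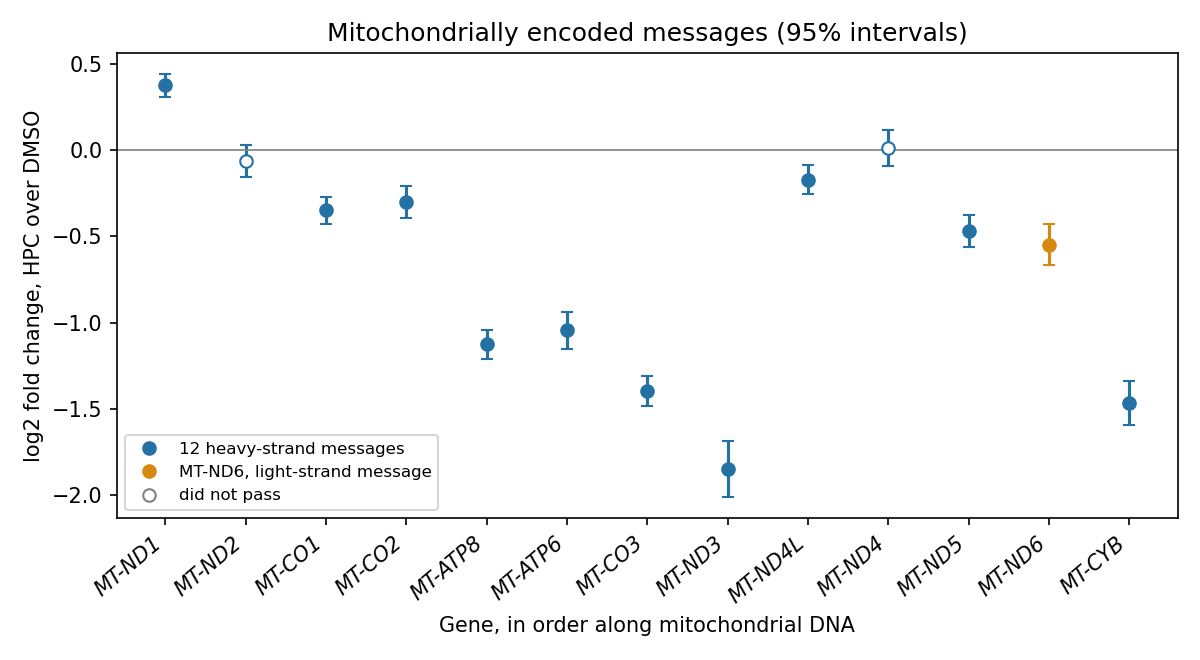
Log2 fold change of HPC over DMSO (vertical axis) with 95% intervals for the 13 mitochondrially encoded messages in order along mitochondrial DNA (horizontal axis); open points did not pass the test. Of the heavy-strand messages (blue), MT-ND1 is above 0 and MT-ND3 lowest at -1.85, and the light-strand MT-ND6 (orange) lies at -0.55. Not drawn are other settings: MT-ND4L is above 0 only after quantile normalization. MT-ND4 changes sign with 2 rescalings and is called higher, at 0.45, after quantile normalization.

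Other genes that cut, modify or degrade mitochondrial RNA split evenly: of 27 listed, 24 were tested, of which 11 rose, 10 fell and 3 missed the threshold (median 0.03). Again 87.5% were called, close to the 87.7% of all tested genes. The members with the largest changes had different tasks. TRUB2, a pseudouridine synthase, averaged 5.08 ± 0.357 FPKM with HPC and 10.2 ± 0.275 FPKM with DMSO (SD, n = 5; log2 fold change -0.99, limma, adjusted p = 1.04e-10). SUPV3L1, the helicase of the mitochondrial degradosome, averaged 14.2 ± 0.439 FPKM with HPC and 7.23 ± 0.235 FPKM with DMSO (0.96, limma, adjusted p = 3.86e-12). ELAC2, which cuts transfer RNAs out at their 3′ ends, averaged 2.36 ± 0.107 FPKM with HPC and 4.53 ± 0.174 FPKM with DMSO (-0.91, limma, adjusted p = 7.26e-11). Named after their values were seen, the 3 subunits of RNase P, which cuts at the 5′ ends, were all lower (PRORP -0.91, HSD17B10 -0.31 and TRMT10C -0.25), where 44.8% of all tested genes were lower. PRORP varied widely, from 0.568 to 1.42 FPKM with HPC and from 1.70 to 2.50 FPKM with DMSO. PNPT1, the nuclease partner of SUPV3L1, also named after its value was seen, was higher (0.28).

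Of 16 genes that copy and keep the template, 15 were tested, and 7 were higher, 6 lower and 2 not passed (median 0.09), which is 86.7% called against 87.7% of all tested genes. Of the 6, DNA2 and TK2 reached the filter only through the DMSO libraries, so their place among the tested genes rests on their being higher there. The nuclease and helicase gene DNA2 had 0.667 to 0.822 FPKM with HPC and 1.98 to 2.22 FPKM with DMSO, and the thymidine kinase gene TK2 had 0.572 to 0.725 FPKM with HPC and 1.57 to 1.67 FPKM with DMSO. Leaving out any 1 of the 5 DMSO libraries left 13 tested genes, with 7 higher, 4 lower and a median of 0.16 to 0.19. The exonuclease gene MGME1 fell by 0.84 on the log2 scale. Of 11 tested translation factor genes (12 listed), 7 fell, 3 rose and 1 missed the threshold (median -0.21), so 90.9% were called against 87.7% of all tested genes. MTIF2, an initiation factor, rose by 0.66, while PTCD3, a protein of the small mitochondrial ribosomal subunit, fell by 0.64 and the elongation factor gene TSFM by 0.61. Among nuclear regulators, 7 of 10 listed were tested, of which 3 rose, 3 fell and 1 missed the threshold (median 0.00), so 85.7% were called against 87.7% of all tested genes. Beside NRF1, GABPA and GABPB1, given above, PPRC1, a coactivator of the PGC-1 family, rose by 0.50 and HCFC1, a transcriptional cofactor, fell by 0.43. PPARGC1A was not analysed here, and 2 of the 10 were below the filter.

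**Figure D5:**
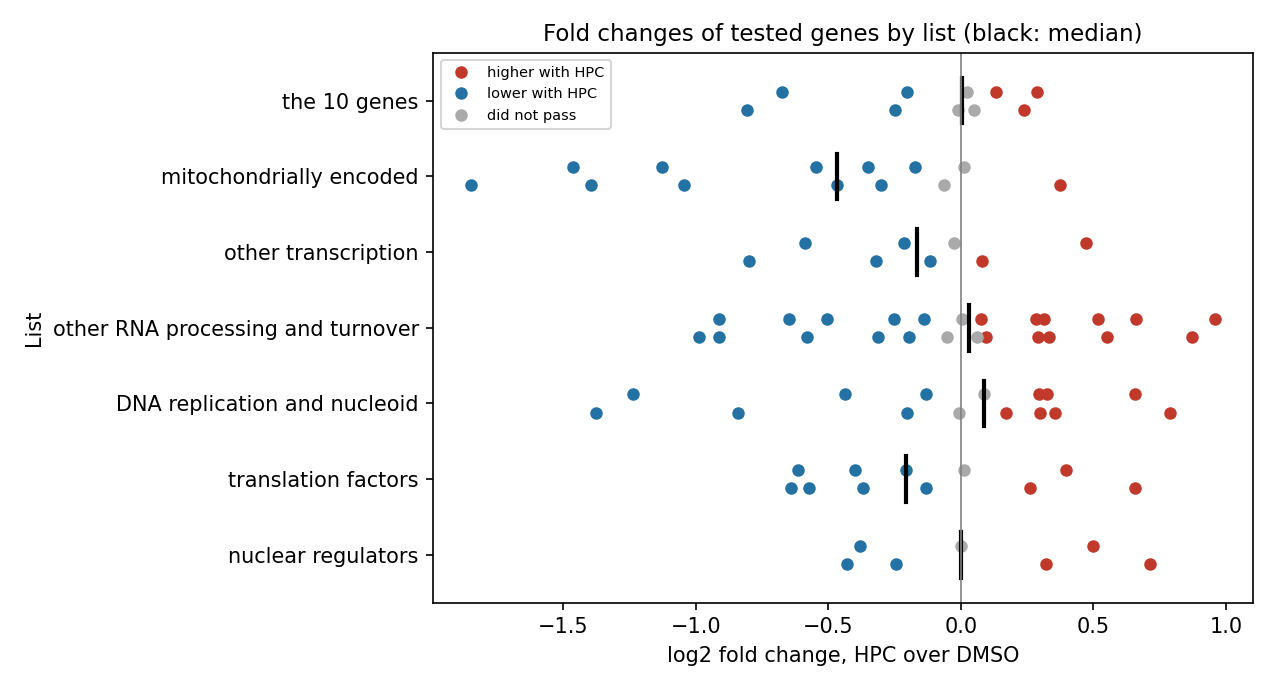
Log2 fold change of HPC over DMSO (horizontal axis) of every tested gene in 7 lists (rows, the 10 genes at the top); each point is a gene, red higher, blue lower, grey not passed, and black bars are medians. The 10 genes span -0.81 to 0.29 around a median of 0.01, the mitochondrially encoded genes have a median of -0.47, and the medians of the other lists lie between -0.21 and 0.09.

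The profiles most like those of the extreme members over the 10 libraries, by root mean square difference of centred log2 values, were those of MAP2K1 (0.042) and ASL (0.0516) for SLIRP, the largest rise. For FASTKD1, the largest fall, they were SPATS2L (0.0395) and CKAP2 (0.0408). CKAP2 averaged 7.57 ± 0.483 FPKM with HPC and 12.8 ± 0.355 FPKM with DMSO (SD, n = 5).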

How the data were processed

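Poly(A)-selected RNA of 5 HPC and 5 DMSO samples was sequenced as paired ends, per the labels' protocols. Tools named in the submitters' processing notes, with no roles, are STAR 2.7.7a, fastp 0.23.2 and edgeR, with the build GRCh38.p13. The authors deposited FPKM per gene, which are not counts. Strand setting and annotation: not given in the sources used here.

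Reads were recovered from the FPKM steps: all 15208 genes above 0 in at least 3 libraries came out whole to within 0.0001 reads. The test was limma 3.58.1 (R 4.3.3) on log2(FPKM + 0.1), with trend and robust options, for the 9150 genes that reached 1 FPKM in 5 or more libraries, adjusted by Benjamini-Hochberg over all of them (threshold 0.05); fold changes on this scale understate low genes. The fit was tested on simulated data, with changes of random direction planted in a small part of the genes. The mitochondrial share was not shifted there, so that run does not check how libraries are scaled. Positions and exons are from GENCODE 29 (GRCh38) and promoters from RefSeq. Python 3.11.15 ran with pandas 2.3.3, NumPy 2.4.6, matplotlib 3.10.9 and SciPy 1.17.1.

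The members and lists were chosen with earlier results of these data known. Named were all 10 members, all 13 mitochondrially encoded genes, TFB2M, TEFM, NRF1, GABPA and PPRC1, up to 3 called genes with the largest change in each other list, and the 2 genes most like the members with the largest rise and fall. Alternatives changed the pseudocount, filter, scaling, variance model, block, threshold, test and libraries. Replicate numbers were not taken to pair the libraries, and the labels do not say whether they do.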

Additional observations from a re-analysis of the deposited data

Results flagged for a closer look

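In 3 of 86 groups of 5 libraries checked, 1 library lay far from the other 4, where chance flags about 1 group in 20; none was a group of the 10 genes or of the mitochondrially encoded genes. TEFM, the mitochondrial elongation factor gene, had 2.115 FPKM in HPC replicate 4, against 2.418 to 2.529 FPKM in the other HPC libraries. PPRC1 had 4.862 FPKM in DMSO replicate 5, against 4.221 to 4.393 FPKM in the other DMSO libraries. ELAC2 had 4.834 FPKM in DMSO replicate 3, against 4.418 to 4.48 FPKM in the other DMSO libraries.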

How the results depend on the processing

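LRPPRC, FASTK, FASTKD1 and FASTKD2 stayed lower and called under every other setting that tested them. With the non-mitochondrial FPKM sum 0 members were called higher (limma; 0 at an unadjusted p under 0.05) and 7 lower, 8 transcription genes were lower and 1 higher, and TBRG4 (-0.12), POLRMT (-0.0312), MTPAP (-0.14), MT-ND4 (-0.16) and TFB2M (-0.0873) changed sign. With TPM rescaling, where 12066 genes reached the same filter, MTPAP (-0.00526) and MT-ND4 (-0.0163) changed sign and 5 regulators were lower, as they were with no filter. After quantile normalization 3 mitochondrially encoded genes were higher and 7 lower, and MT-ND4L (0.065), TEFM (0.0196) and TFB2M (-0.00265) changed sign. TFAM changed to 0.00471 with median ratio scaling. With at least 5 FPKM required, 4240 genes remained, of which 3805 were called. Only 5 members, 2 transcription and 10 RNA processing genes were then tested. FASTK, FASTKD1 and FASTKD2 were not among them, so the smaller count of lower members came from genes leaving the test. Lower were 1 member, 1 transcription, 4 RNA processing, 1 DNA replication and 3 translation genes. Higher were 1 transcription, 6 RNA processing and 4 replication genes. The transcription list had 1 higher gene also with TPM rescaling, quantile normalization, voom on recovered reads, the reads outside mitochondrially encoded genes and an adjusted p under 0.01, since TFB2M (0.08) lost its call. Without any 1 DMSO library 4 replication genes were lower of 13 tested, since DNA2 and TK2 then missed the filter. Leaving out 1 library gave 1 to 2 higher transcription genes, and log2 fold changes of -0.0235 to 0.00896 for TFAM (above 0 without HPC replicate 1), -0.000918 to 0.0495 for MTPAP (below 0 without HPC replicate 2), -0.0199 to 0.0451 for MT-ND4 and -0.0511 to 0.015 for TEFM (above 0 without HPC replicate 4). The causes were not tested.

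Same-numbered libraries had correlations of -0.0593 to 0.199, so they were not taken as pairs. A fit with the replicate number as a block called 7969 genes, against 8021, and changed no call of the 10 genes. The log2 ratio of LRPPRC to SLIRP stayed at -0.97 with the replicate block, where an exact sign-flip test gave p = 0.0625, the smallest 5 pairs can give. Without 1 library it was -1.04 to -0.92. The lowest read count of the 10 genes in a library was 1655, for FASTKD1 in HPC replicate 2. In the DMSO libraries SLIRP had 1710 to 2093 reads and FASTKD1 3189 to 3759. In the HPC libraries SLIRP had 1719 to 2446 and FASTKD1 1655 to 1902. The counting error of values with few reads is larger.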
